A study of Mus musculus with 13 samples.

Results

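The genes described here are the antioxidant and glutathione genes of the mouse, a list of 49 that covers the sensor of oxidative stress, the enzymes that make and recycle glutathione, the thioredoxin system, superoxide dismutases, peroxidases, glutathione transferases, quinone and carbonyl reductases, metallothioneins and the haem and iron proteins. A member was found by its symbol in the annotation of the array, and where several probe sets carried it, the one of the highest average signal stood for the gene. By that rule 45 of the 49 members were measured, out of 18193 genes with a probe set of their own. Prdx1 and Ftl1 had only probe sets that carry several gene symbols, Prdx5 and Prdx6 had none under their symbol, and these 4 were not analysed here.

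The cells were cultured progenitor/stem cells of the adult prostate, isolated from 10-week-old wild-type mice of the strain given as B1/6; 127/SVEV and used at passage 22. All groups share this genotype, age and passage. The treatment was 1,25-dihydroxyvitamin D3, the hormonal form of vitamin D, called 1,25D here and given at 100 nM, and control cultures had ethanol alone as vehicle, at 0.1%. Either lasted 6 h, or 48 h with daily renewal. RNA was measured on 13 Affymetrix arrays, with 3 of vehicle at 6 h, 3 of 1,25D at 6 h, 3 of vehicle at 48 h and 4 of 1,25D at 48 h.

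The transcription factor Nrf2, encoded by Nfe2l2, is held in the cytoplasm and marked for degradation by Keap1, and it escapes when electrophiles or oxidants modify Keap1. It then binds antioxidant response elements near genes such as Nqo1, Gclc, Gclm, Txnrd1, Srxn1 and Slc7a11. Glutathione, the main small thiol of the cell, is made by the glutamate-cysteine ligase pair Gclc and Gclm and by Gss, is oxidised when peroxides are reduced, and is returned to its reduced form by Gsr. 1,25D acts through the vitamin D receptor, a nuclear receptor that binds DNA with the retinoid X receptor.

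Values are log2 signals as deposited, and a difference of 1.00 is a 2.00-fold difference. A gene is called changed where the adjusted p of limma, corrected by Benjamini-Hochberg over all 45037 probe sets tested, was under 0.05. The labels do not say that replicates came from separate cultures, so the p-values measure only the spread between these arrays, which may be technical. The signal of a probe depends on its sequence, so levels were compared between arrays, and between genes only as rough percentiles. Vehicle 6 h replicate 1 and 1,25D 48 h replicate 4 stood apart in the spread of their signals, with interquartile ranges of 2.95 to 3.03 against 3.27 to 3.46 in the other 11 arrays. Without both arrays the members called at 48 h of 1,25D were again 6 higher and 1 lower. Percentiles rank the average signal of a probe set among all 45037 tested. The 7 basal epithelial markers had a median percentile of 97.3, with Krt15 at 69.4, Krt5 at 99.2 and Krt14 at 99.9. The 4 general epithelial markers had a median percentile of 99.3, with Krt8 and Krt18 both at 99.7. The luminal list had a median percentile of 29.6, with Tmprss2 at 80.4. For stroma the median was 46.4, for immune 43.5 and for endothelium 33.

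At 6 h of 1,25D, Gsr was the member that changed. Gsr encodes glutathione reductase, which spends NADPH to turn oxidised glutathione back into the reduced form. Its log2 signal was 10.07, 9.97 and 10.22 in the 3 vehicle arrays and 10.97, 11.03 and 10.91 in the 3 arrays with 1,25D. The lowest array with 1,25D was higher than the highest with vehicle, so the groups did not overlap. The rise was 0.89 on the log2 scale (SE 0.13, limma adjusted p = 0.00385), or 1.85-fold. A second Gsr probe set rose by 1.27 (limma adjusted p = 0.00221). These are bulk RNA measurements, in which a change in the share of cells that express a gene and a change in RNA per cell cannot be told apart.

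That 1 of 45 members was called at 6 h (2.22%) stood against 0.852% of all 18193 genes in either direction and 0.687% higher, and the members' median log2 difference was 0.002 against -0.0203 for all genes. An unadjusted limma p under 0.05 was reached by 5 members (Gsr, Sod2, Sqstm1, Mt2 and Gstt1), against 7.01% of all genes. The arrays of both groups did not overlap for 4 members, against 10.2% of all genes. Without the dimmest 40% of probe sets, 1 of 44 members rose and 0 fell, where 1.41% of the 13374 remaining genes were called. The members just outside the threshold were Sod2 (mitochondrial superoxide dismutase, -0.23, limma adjusted p = 0.326), Sqstm1 (the autophagy receptor p62, which binds Keap1, 0.30, adjusted p = 0.655) and Mt2 (a metallothionein, -0.27, adjusted p = 0.788). The Sod2 arrays lay at 11.85, 11.75 and 11.85 with vehicle and at 11.58, 11.61 and 11.57 with 1,25D, with no overlap. Besides Gsr, the members of the synthesis group were not called: Gclc differed by 0.26, Gclm by -0.25 and Gss by 0.10. Of the 4 luminal markers measured, Tmprss2 rose in the same arrays (1.37, limma adjusted p = 0.000709). Pbsn (-0.015), Msmb (-0.041) and Hoxb13 (-0.264) were not called. The summed level of that list adds unlogged signals, so it mostly follows Tmprss2, the brightest of them. That sum was 7.65 to 7.76 on the log2 scale with vehicle and 8.61 to 8.92 with 1,25D. The part of Tmprss2 in the Gsr result was not tested.

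At 48 h of 1,25D, 6 members rose and 1 fell. Those that rose were Gsr, the glutathione transferases Gsta4 and Gsto1, the carbonyl reductase Cbr3, the aldehyde oxidase Aox1, and the biliverdin reductase Blvrb, and the member that fell was the peroxiredoxin Prdx4. Together they were 7 of 45 members (15.6%), where 2.39% of all genes were called. In one direction, 1.43% of all genes were higher and 0.951% lower. The median log2 difference of the members was 0.018 against -0.00239 for all genes, with 23 members above 0 and 21 below. For 18 members the arrays of both groups did not overlap, 12 of them higher with 1,25D and 6 lower, against 12.6% of all genes in either direction. Without the dimmest 40% of probe sets, 7 of 44 members rose and 1 fell, where 3.65% of the 13374 remaining genes were called.

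**Figure D1:**
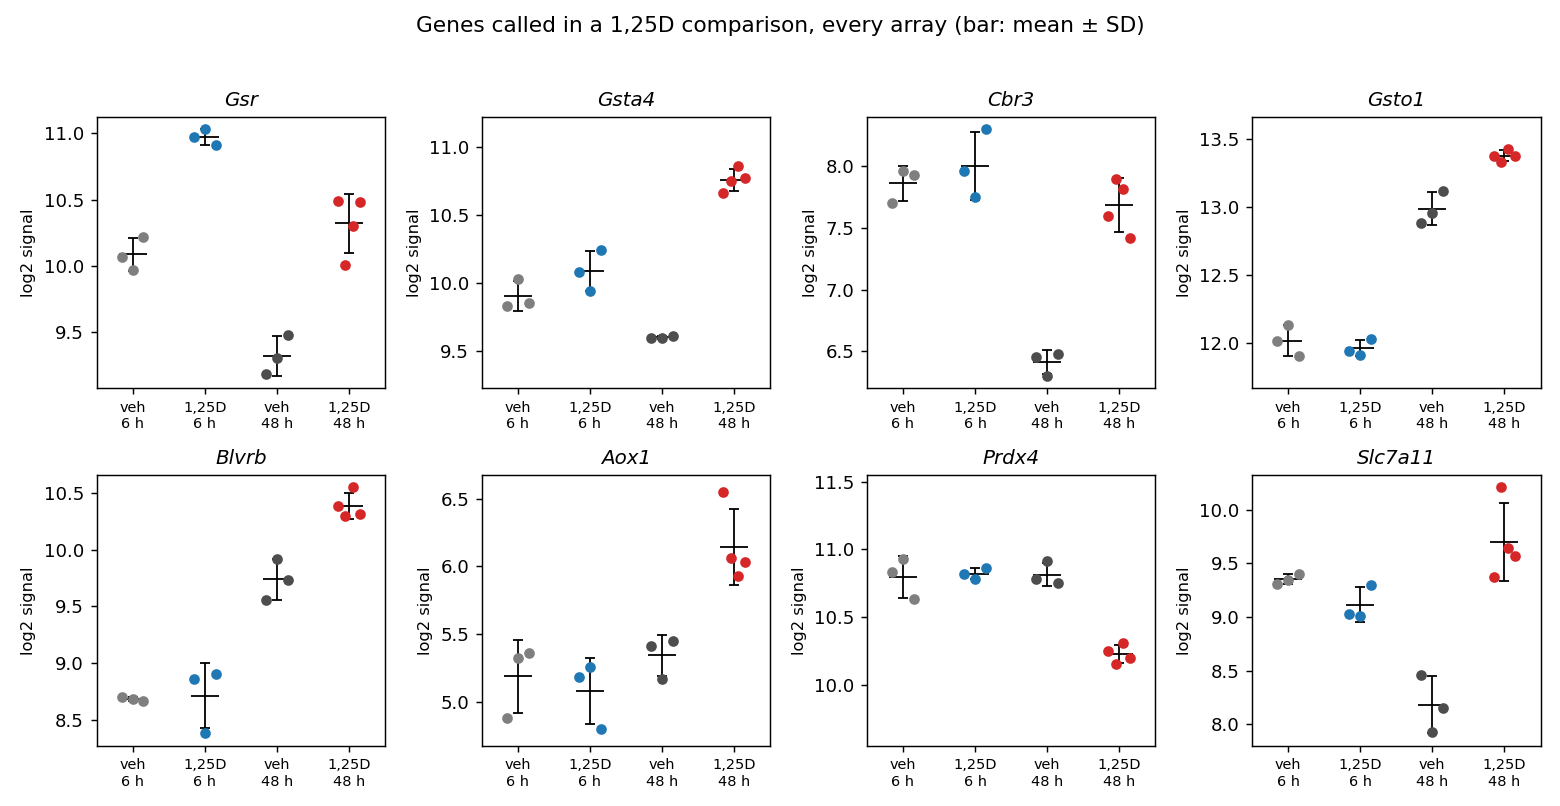
Log2 signal (y axis) on each of the 13 arrays for the 7 members called for 1,25D at 48 h and for Slc7a11, grouped by vehicle or 1,25D and by 6 h or 48 h. Each point is 1 array, and bars give the group mean ± SD. In all 8 panels the 48 h arrays with 1,25D lie apart from the 48 h vehicle arrays. In the Gsr and Slc7a11 panels the 6 h groups do not overlap either, with 1,25D higher for Gsr and lower for Slc7a11.

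In the group that makes and recycles glutathione, Gsr was again higher. Its vehicle arrays at 48 h read 9.18, 9.30 and 9.48 on the log2 scale, and the arrays with 1,25D read 10.49, 10.01, 10.30 and 10.48. The lowest treated array lay above the highest vehicle array. Gsr rose by 1.00 (SE 0.12, limma adjusted p = 0.00047), or 2.00-fold, and its second probe set rose by 0.85 (adjusted p = 0.018). The rise at 48 h minus the rise at 6 h was 0.11 (SE 0.18, limma adjusted p = 0.985), which was less than its own error.

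Gclc, the catalytic subunit of the first enzyme of glutathione synthesis, lay just outside the threshold at 48 h. Vehicle arrays read 9.86, 9.68 and 9.51, and arrays with 1,25D read 10.26, 10.81, 10.10 and 10.28, with no overlap. The log2 difference was 0.68 (SE 0.19, limma adjusted p = 0.143). Its second probe set, the dimmer of the pair, gave 0.65 and passed (adjusted p = 0.033). Without vehicle 6 h replicate 2, which lends only its spread to this comparison, the adjusted p of the first probe set was 0.0458. Gclm, the modifier subunit of the same enzyme, differed by 0.02 and Gss, which adds glycine in the last step, by 0.20, and neither was called.

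Among the 11 glutathione transferases, enzymes that attach glutathione to electrophiles, 2 rose and none fell. Gsta4, which acts on 4-hydroxynonenal and other products of lipid peroxidation, read 9.59, 9.59 and 9.61 with vehicle at 48 h and 10.66, 10.75, 10.86 and 10.77 with 1,25D. The groups lay far apart relative to their spread. The rise was 1.17 (SE 0.09, limma adjusted p = 8.3e-06), or 2.25-fold. At 6 h Gsta4 read 9.83, 10.03 and 9.85 with vehicle and 10.08, 9.94 and 10.24 with 1,25D, and those groups overlapped (0.18, adjusted p = 0.952). Gsta4 was the one member whose responses at the 2 times were called different, with a difference of 0.99 (SE 0.14, limma adjusted p = 0.00454), where 0.632% of all genes were called. For that difference 13 of the 45 members had an unadjusted limma p under 0.05, against 7.23% of all genes.

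Gsto1, an omega-class transferase with thioltransferase and dehydroascorbate reductase activity, read 12.88, 12.96 and 13.12 with vehicle at 48 h and 13.38, 13.33, 13.43 and 13.38 with 1,25D. It rose by 0.39 (SE 0.07, limma adjusted p = 0.00814), with no overlap of arrays. That call was lost without vehicle 48 h replicate 1 (adjusted p = 0.0604) and without vehicle 48 h replicate 2 (adjusted p = 0.0526), and with no intensity trend (adjusted p = 0.0504). A second, dimmer Gsto1 probe set gave 0.32 and was not called (limma adjusted p = 0.12). Mgst2, a membrane-bound transferase, read 8.74, 8.81 and 8.64 with vehicle and 9.08, 9.35, 9.18 and 9.26 with 1,25D. These arrays did not overlap, and its difference of 0.48 was just outside the threshold (limma adjusted p = 0.0715). The other transferases were not called and ranged from -0.50 in Gstt1 to 0.37 in Gstm1, with Gstp1 at 0.20 and Gstm2 at -0.43.

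Of the 6 quinone, carbonyl and xenobiotic enzymes, Cbr3 and Aox1 rose. Cbr3, a carbonyl reductase that uses NADPH, read 6.45, 6.30 and 6.48 with vehicle at 48 h and 7.60, 7.90, 7.82 and 7.42 with 1,25D. All 4 treated arrays stood above the vehicle arrays. Cbr3 rose by 1.27 (SE 0.16, limma adjusted p = 0.000532), or 2.42-fold. At 6 h its arrays read 7.70, 7.96 and 7.93 with vehicle and 7.96, 7.75 and 8.30 with 1,25D, and the groups overlapped. The difference between its responses at 48 h and 6 h was 1.14 (SE 0.23) and missed the threshold (limma adjusted p = 0.0627); it passed without 1,25D 6 h replicate 3 (0.0471) and without 1,25D 48 h replicate 4 (0.0293).

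Aox1, an aldehyde oxidase that needs a molybdenum cofactor, read 5.41, 5.17 and 5.45 with vehicle at 48 h and 6.55, 6.06, 5.93 and 6.03 with 1,25D. Treated arrays were higher without overlap, at a signal near the middle of all probe sets (percentile 47.8). Its rise of 0.80 (SE 0.18, limma adjusted p = 0.0463) was the weakest of the 7 calls by adjusted p. It remained past the threshold when vehicle 6 h replicate 1 or 1,25D 48 h replicate 4 was left out and was lost without any other single array, with adjusted p up to 0.253 without vehicle 48 h replicate 2. It was also lost with quantile normalization (0.0616), median centring (0.0768) and only the 2 groups in the fit (0.0921), and with an offset of 32 its value was 0.50 (limma adjusted p = 0.0386). Nqo1, the quinone reductase that is the textbook readout of Nrf2, read 7.35, 7.57 and 7.60 with vehicle and 7.92, 8.37, 8.22 and 7.35 with 1,25D at 48 h. In 1,25D 48 h replicate 4 Nqo1 was as low as the lowest vehicle array, and the difference of 0.46 (SE 0.23) was not called (limma adjusted p = 0.79). Ephx1 (0.10), Ugdh (0.08) and Cbr1 (0.05) were not called either.

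Within the metal, haem and iron group Blvrb rose. Blvrb reduces flavins and some forms of biliverdin with NADPH. It read 9.56, 9.92 and 9.73 with vehicle at 48 h and 10.38, 10.30, 10.55 and 10.31 with 1,25D, and every treated array was higher. The rise was 0.65 (SE 0.14, limma adjusted p = 0.0292), or 1.57-fold. It was lost without vehicle 48 h replicate 1 (adjusted p = 0.192) or replicate 3 (0.127) and without 1,25D 48 h replicate 1 (0.0871), replicate 2 (0.0528) or replicate 3 (0.113) and with median centring (0.0501). The other biliverdin reductase, Blvra, from a further list of genes described below, was not called at 48 h (-0.015). Hmox1, the inducible haem oxygenase, had a wide spread within groups. Its arrays read 7.77, 8.24 and 7.52 with vehicle and 7.51, 7.53 and 8.94 with 1,25D at 6 h, and 7.44, 8.34 and 8.43 with vehicle and 8.33, 7.19, 8.26 and 7.09 with 1,25D at 48 h. No Hmox1 comparison separated its groups (-0.35 at 48 h, limma adjusted p = 1). The metallothioneins, small cysteine-rich proteins that bind zinc and copper, differed by -0.12 in both Mt1 and Mt2, and the ferritin heavy chain Fth1 by 0.12.

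Prdx4, the peroxiredoxin of the endoplasmic reticulum, was the member that fell. Its arrays read 10.78, 10.91 and 10.75 with vehicle at 48 h and 10.25, 10.15, 10.31 and 10.20 with 1,25D. No treated array reached the lowest vehicle array. Prdx4 fell by 0.59 (SE 0.09, limma adjusted p = 0.00254). At 6 h it read 10.83, 10.93 and 10.63 with vehicle and 10.82, 10.78 and 10.86 with 1,25D, and the groups overlapped. The difference between the responses was -0.61 (limma adjusted p = 0.0711), and -0.68 without vehicle 6 h replicate 2 (adjusted p = 0.0488). Of 3 dimmer Prdx4 probe sets none was called at 48 h, with values of -0.43, -0.30 and 0.02, and the mean over all its probe sets gave -0.33 (adjusted p = 0.21).

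The remaining members were not called at 48 h of 1,25D. In the thioredoxin group they ranged from -0.12 in Prdx2 to 0.30 in Prdx3, with thioredoxin itself, Txn1, at -0.11, thioredoxin reductase Txnrd1 at -0.05 and sulfiredoxin Srxn1 at 0.10. Among the superoxide dismutases and catalase, Cat differed by -0.51 (limma adjusted p = 0.302) and Sod1, Sod2 and Sod3 by -0.003, -0.009 and 0.12. The glutathione peroxidases ranged from -0.44 in Gpx2 to 0.28 in Gpx1, whose vehicle arrays (12.10, 12.33 and 12.17) lay below all arrays with 1,25D (12.44, 12.47, 12.50 and 12.49) and whose adjusted p was 0.11. The sensor genes Nfe2l2, Keap1 and Sqstm1 differed by -0.004, -0.06 and -0.04. At an unadjusted limma p under 0.05 stood 19 of the 45 members, against 10.3% of all genes.

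**Figure D2:**
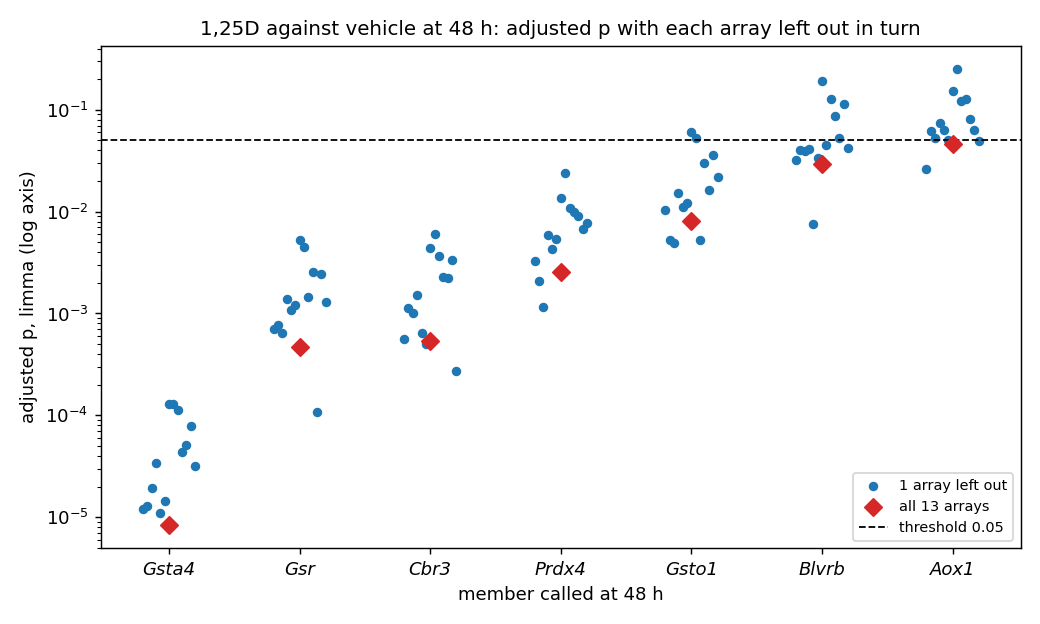
Adjusted p of limma (y axis, log scale) for 1,25D against vehicle at 48 h in each of the 7 called members (x axis), with all 13 arrays (diamonds) and with 1 array left out in turn (points); the dashed line is the threshold of 0.05. Gsta4, Gsr, Cbr3 and Prdx4 stay under it in all 13 fits, while Gsto1, Blvrb and Aox1 cross it in some.

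With 3 arrays against 4, an exact two-sided permutation test of a single gene cannot go below p = 0.0571. All 7 called members reached that value, as does any gene whose arrays do not overlap. Arrays did not overlap for 18 of the 45 members and 12.6% of all genes, so the test adds nothing to the lack of overlap. At 48 h the immune list moved with 1,25D through Cd68, a lysosomal protein, which rose by 1.23 (limma adjusted p = 0.000846). The other 4 immune markers measured, Ptprc, Adgre1, Lyz2 and Cd3e, were not called, and Ptprc lay at percentile 15.9. The summed log2 level of the 5 immune markers was 8.19 to 8.25 with vehicle and 8.66 to 9.04 with 1,25D. Of the 4 general epithelial markers Krt8 and Krt18 fell, by 0.43 and 0.34, and the summed level of that list was 15.20 to 15.25 with vehicle and 14.88 to 14.90 with 1,25D. No stromal or endothelial marker was called, and the part of these markers in the members' changes was not tested.

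Between 6 h and 48 h of vehicle, 14 members rose and 9 fell, 23 of 45 (51.1%), where 18.6% of all genes were called, 9.84% higher and 8.75% lower. The 6 largest falls, from 2.36-fold to 4.41-fold, were those of Nqo1, Gclc, Srxn1, Cbr3, Txnrd1 and Gclm. The rises held 7 of 11 glutathione transferases and both metallothioneins. The median log2 difference of the members was 0.04 against -0.0262 for all genes. Arrays of the 2 times did not overlap for 28 members, against 31% of all genes, and 29 members had an unadjusted limma p under 0.05, against 29.4%. Without the dimmest 40% of probe sets, 14 of 44 members rose and 12 fell, where 27.9% of the 13374 remaining genes were called. Arrays of 6 h and 48 h differ in time in culture and possibly in the day of processing, and these cannot be told apart. The vehicle arrays at 48 h serve in this comparison and in that of 1,25D at 48 h, so the values of both are set side by side below without a measure of their agreement.

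Markers of cell types moved over the same time in vehicle. Of the 7 basal markers Krt15 and Trp63 rose, by 1.69 and 1.14, and Cd44 fell by 0.45, while the summed log2 level of the list was 14.84 to 15.05 at 6 h and 14.84 to 14.97 at 48 h. Among the 4 epithelial markers Epcam and Krt18 rose, by 0.36 and 0.30, with summed levels of 15.02 to 15.07 and then 15.20 to 15.25. Tmprss2 rose by 1.37 (limma adjusted p = 7.26e-05), 1 of 4 luminal markers measured, and that list's sum went from 7.65 to 7.76 at 6 h to 8.69 to 8.90 at 48 h. Cd68 rose by 1.02 (adjusted p = 0.00112), 1 of 5 immune markers, with sums of 7.84 to 8.26 and then 8.19 to 8.25. No stromal or endothelial marker was called, and the part of these markers in the members' changes over time was not tested.

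**Figure D3:**
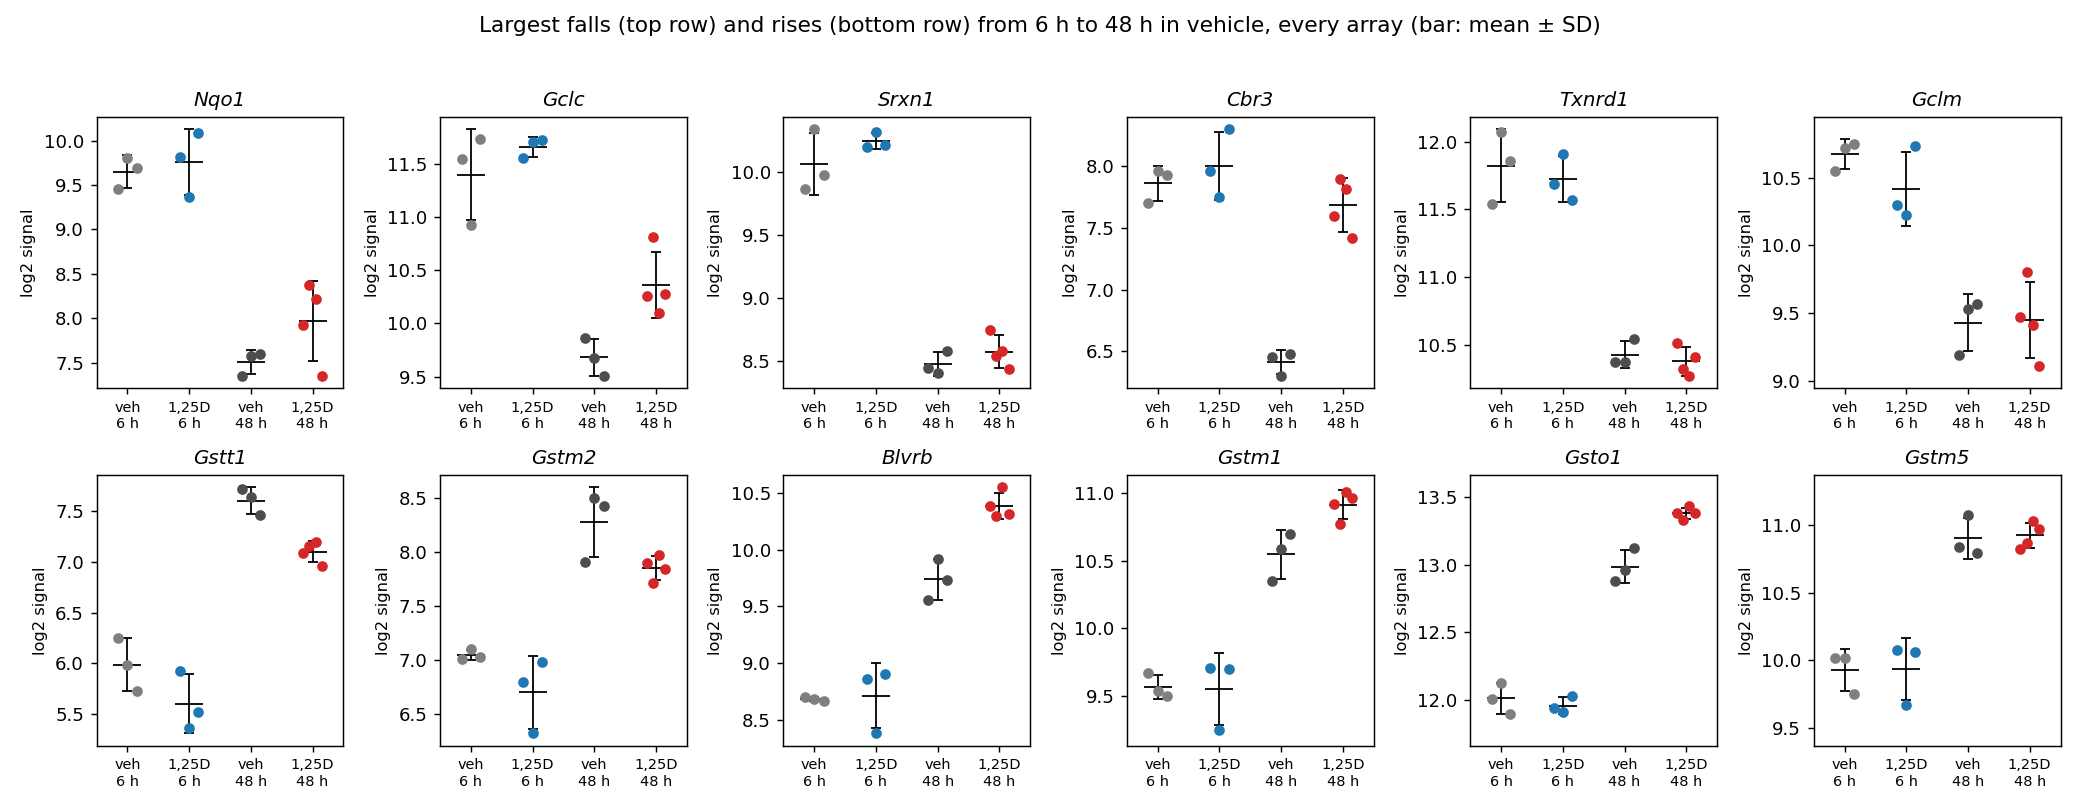
Log2 signal (y axis) on each vehicle and 1,25D array at 6 h and 48 h for the 6 members with the largest falls (top) and the 6 with the largest rises (bottom) over time in vehicle. Each point is 1 array, and bars give the group mean ± SD; in every panel the vehicle arrays of 6 h and 48 h do not overlap.

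The largest fall was that of Nqo1, whose vehicle arrays read 9.45, 9.81 and 9.69 at 6 h and 7.35, 7.57 and 7.60 at 48 h. All 48 h arrays lay well below the 6 h arrays. Nqo1 fell by 2.14 on the log2 scale (SE 0.24, limma adjusted p = 4.45e-05), or 4.41-fold. Cbr3, the other reductase that fell, went from 7.70, 7.96 and 7.93 to 6.45, 6.30 and 6.48. Its fall was 1.45 (SE 0.17, limma adjusted p = 6.19e-05), or 2.74-fold. In the same comparison Ephx1, the microsomal epoxide hydrolase, rose by 0.88 (adjusted p = 2.06e-05), from 10.34, 10.49 and 10.28 to 11.17, 11.31 and 11.27.

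Both subunits of glutamate-cysteine ligase were lower at 48 h. Gclc read 11.54, 10.92 and 11.73 at 6 h and 9.86, 9.68 and 9.51 at 48 h, and it fell by 1.71 (SE 0.20, limma adjusted p = 6.19e-05). The first time held one lower array, vehicle 6 h replicate 2, which still lay above all 48 h arrays. Gclm read 10.55, 10.72 and 10.75 at 6 h and 9.19, 9.53 and 9.57 at 48 h, and it fell by 1.24 (SE 0.18, adjusted p = 0.000283). Second probe sets of the pair fell as well, by 1.72 for Gclc and 1.10 for Gclm. Gsr fell by 0.77 over the same time (SE 0.13, adjusted p = 0.00131), from 10.07, 9.97 and 10.22 to 9.18, 9.30 and 9.48, while its second probe set, at -0.39, was not called (adjusted p = 0.218). Gss, the last enzyme of synthesis, differed by 0.04 and was not called.

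The thioredoxin system had 3 falls among 6 members and no rise. Srxn1, which restores overoxidised peroxiredoxins, read 9.87, 10.34 and 9.98 at 6 h and 8.44, 8.40 and 8.58 at 48 h. Txnrd1, the cytosolic selenoprotein that reduces thioredoxin, read 11.54, 12.07 and 11.86 at 6 h and 10.37, 10.37 and 10.54 at 48 h. For both genes the times were separated by more than the spread within either. Srxn1 fell by 1.59 (SE 0.13, limma adjusted p = 3.65e-06) and Txnrd1 by 1.40 (SE 0.13, adjusted p = 8.27e-06). The dimmer probe sets gave smaller values. Those of Txnrd1 were -0.30 and -0.09 and not called, and the mean over its probe sets fell by 0.60 (limma adjusted p = 0.00862). Those of Srxn1 were -1.20, -0.85 and -0.29, the last not called, and the mean over its probe sets fell by 0.98 (adjusted p = 4.01e-05). Txn1 fell by 0.29 (adjusted p = 0.000205), from 13.62, 13.56 and 13.60 to 13.26, 13.34 and 13.30, a small change with a tight spread. Prdx2 (0.28), Prdx3 (-0.39, limma adjusted p = 0.0597) and Prdx4 (0.02) were not called.

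Of the 11 glutathione transferases, 7 rose and 1 fell. Gstt1, a theta-class enzyme that conjugates small halogenated compounds, read 6.25, 5.98 and 5.73 at 6 h and 7.72, 7.64 and 7.46 at 48 h. The groups were well apart, and Gstt1 rose by 1.62 (SE 0.18, limma adjusted p = 3.17e-05), or 3.07-fold. The 3 mu-class members rose, Gstm2 by 1.23, Gstm1 by 0.98 and Gstm5 by 0.97, with adjusted p of 0.000531, 0.00022 and 0.000158. Gstm2 went from 7.01, 7.10 and 7.03 to 7.91, 8.50 and 8.43. The Gstm1 arrays read 9.67, 9.54 and 9.50 at 6 h and 10.35, 10.59 and 10.70 at 48 h, and Gstm5 read 10.02, 10.02 and 9.75 and then 10.84, 11.07 and 10.79. The mu-class genes are close paralogs, and the Gstm1 probe set is of a type that can hybridise to related transcripts, so their separate sizes are uncertain. Of the dimmer Gstm1 probe sets, those not of that type gave 1.00 and 0.245, the latter not called. Another of that type gave 0.56. On the further list the mu-class Gstm4 rose by 1.17, while Gstm3 (0.05), Gstm6 (0.16) and Gstm7 (-0.03) were not called.

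Gsto1 rose by 0.98 (SE 0.07, limma adjusted p = 1.14e-06), from 12.01, 12.13 and 11.90 to 12.88, 12.96 and 13.12. The membrane-bound Mgst1 and Mgst2 rose by 0.62 and 0.60. Gstp1, the pi-class enzyme abundant in many epithelia, was the transferase that fell, by 0.32 (adjusted p = 0.00529), from 12.88, 12.99 and 13.02 to 12.51, 12.66 and 12.77. Gsta4 (-0.31, limma adjusted p = 0.0645), Gsta3 (-0.50) and Mgst3 (0.34) were not called.

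In the metal, haem and iron group 3 of 5 members rose. Blvrb read 8.70, 8.68 and 8.67 at 6 h and 9.56, 9.92 and 9.73 at 48 h, and it rose by 1.05 (SE 0.14, limma adjusted p = 0.00022). Mt1 rose by 0.85 (SE 0.09, adjusted p = 2.73e-05), from 12.51, 12.55 and 12.66 to 13.39, 13.47 and 13.39. Mt2 rose by 0.61 (SE 0.12, adjusted p = 0.00315), from 11.76, 11.66 and 12.23 to 12.49, 12.53 and 12.46. Neither gene had overlapping times, although vehicle 6 h replicate 3 was the highest of the 6 h arrays for both metallothioneins. Hmox1 (0.23, limma adjusted p = 0.88) and Fth1 (0.02) were not called.

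The sensor genes moved less. Nfe2l2 rose by 0.35 (SE 0.10, limma adjusted p = 0.0368), from 10.33, 10.42 and 10.23 to 10.67, 10.69 and 10.68. The call was lost in 8 of the 13 fits that left out 1 array: each vehicle 48 h array (adjusted p up to 0.103), vehicle 6 h replicate 1 (0.0646) and replicate 3 (0.122), 1,25D 6 h replicate 3 (0.0512) and 1,25D 48 h replicates 1 (0.0554) and 3 (0.0545). It was lost as well with only the 2 groups in the fit (0.0836), without both arrays that stand apart (0.0556) and with the mean over its probe sets (0.19, adjusted p = 0.373). Sqstm1 rose by 0.48 (adjusted p = 0.0121), from 11.19, 11.16 and 10.95 to 11.47, 11.62 and 11.66, and its call was lost without vehicle 6 h replicate 3 (0.0533) or vehicle 48 h replicate 3 (0.0548), and with the mean over its probe sets (0.29, adjusted p = 0.0574). The second probe sets that enter these means were dim, at percentile 34.9 for Nfe2l2 and 24.6 for Sqstm1. Keap1 read 9.14, 9.16 and 9.47 at 6 h and 9.12, 8.98 and 9.07 at 48 h, and its difference of -0.20 was not called (limma adjusted p = 0.53). The glutathione peroxidases held 1 rise, of Gpx4, which reduces lipid hydroperoxides in membranes (0.58, adjusted p = 0.000678, from 11.94, 11.98 and 11.75 to 12.49, 12.55 and 12.36), and the other 5 ranged from -0.13 in Gpx1 to 0.43 in Gpx8. No superoxide dismutase and no catalase was called, with values from -0.56 in Sod1 (adjusted p = 0.076) to 0.19 in Cat.

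**Figure D4:**
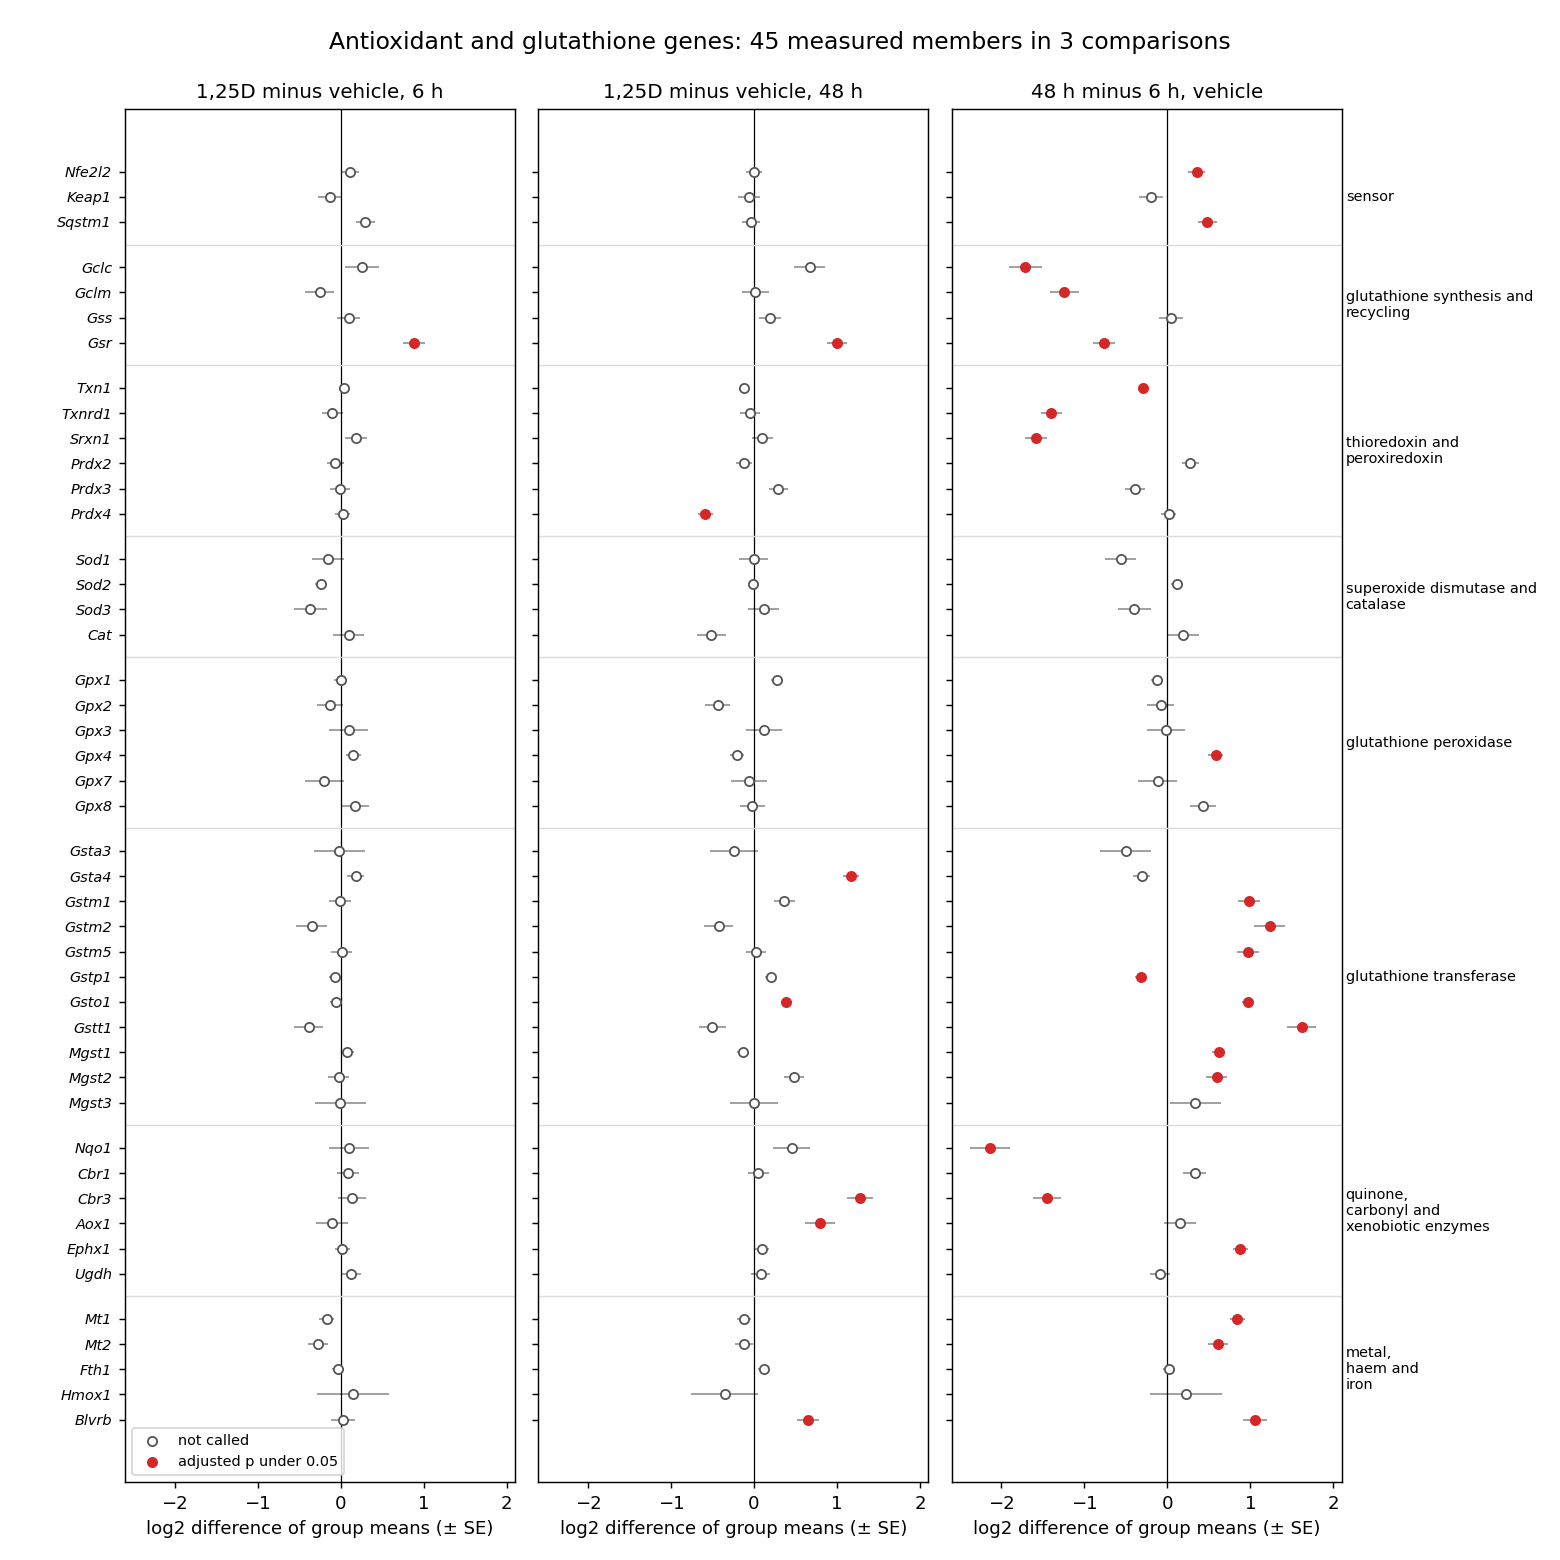
Log2 difference (x axis) of each of the 45 measured members, ordered by role, for 1,25D at 6 h, 1,25D at 48 h and time in vehicle, with filled points for called members and bars of ± SE. The time panel spans -2.14 in Nqo1 to 1.62 in Gstt1, while the 6 h panel of 1,25D spans -0.38 to 0.89.

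Set side by side, the members called for 1,25D at 48 h had different courses in vehicle. Cbr3 and Gsr fell over time in vehicle and were higher with 1,25D at 48 h. Cbr3 averaged 7.86 in vehicle at 6 h, 6.41 in vehicle at 48 h and 7.68 with 1,25D at 48 h, and Gsr averaged 10.08, 9.32 and 10.32 in the same order. Blvrb and Gsto1 rose in vehicle and were higher still with 1,25D at 48 h. Gsta4 (-0.31, limma adjusted p = 0.0645, with no overlap of arrays), Prdx4 (0.02) and Aox1 (0.16) were not called over time in vehicle. Members with large falls in vehicle that were not called for 1,25D at 48 h were Nqo1, Gclc, Gclm, Txnrd1 and Srxn1; the Txnrd1 arrays with 1,25D at 48 h read 10.51, 10.32, 10.27 and 10.41, the Srxn1 arrays 8.74, 8.54, 8.58 and 8.43 and the Gclm arrays 9.47, 9.80, 9.41 and 9.11, all 3 overlapping with vehicle at 48 h.

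The promoter windows of the members were searched because the genes that fell in vehicle include the classical targets of Nrf2. A window ran from 250 bases before to 50 bases after a transcription start site of the RefSeq annotation on GRCm38.p6, and 40 of the 45 members had one; Gclc, Gsr, Sod3, Gsta4 and Hmox1 are named only. The antioxidant response element core was searched as TGACNNNGC, with N any base, on both strands. The base before the core was left free, so a match holds the core only. It was found in 10 of the 40 members (25%), against 14% of all 27025 genes with a window. By course in vehicle, it was in 3 of 7 members that fell, 4 of 14 that rose and 3 of 19 not called. Whether a match has a part in a change over time was not tested. The matches of the members that fell are printed first, 5′ to 3′ on the strand of the match, with the core in capitals.
Gclm: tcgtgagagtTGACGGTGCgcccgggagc
Srxn1: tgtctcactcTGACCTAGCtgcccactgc
Txnrd1: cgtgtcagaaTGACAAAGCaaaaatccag

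The Gclm match lay on the minus strand at chr3:122245413-122245441, with its core at -134 to -126 from the start site, negative positions lying before it. In Srxn1 it lay on the minus strand at chr2:152105542-152105570, with the core at bases 29 to 37 after the start site, within the transcribed sequence. The Txnrd1 match was on the minus strand at chr10:82859104-82859132, with the core at -92 to -84 from one of several start sites. Members that rose in vehicle are shown for contrast, since the same core stood in 4 of their windows.
Gstm5: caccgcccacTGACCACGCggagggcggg
Mgst1: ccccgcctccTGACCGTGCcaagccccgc
Mt2: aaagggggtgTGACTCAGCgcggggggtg
Nfe2l2: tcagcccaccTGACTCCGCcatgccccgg

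These lay at chr3:107895802-107895830 (plus strand) for Gstm5, chr6:138140461-138140489 (minus) for Mgst1, chr8:94172529-94172557 (plus) for Mt2 and chr2:75704885-75704913 (minus) for Nfe2l2. Nqo1 had no match in this window, which says only that these letters are not within it. A loose pattern for the core of the metal response element, TGCNCNC on both strands, was in 40% of the members' windows, against 53.6% of all genes. It stood in the windows of both Mt1 and Mt2, and matches of the 2 motifs overlapped in the Gclm window. A direct-repeat vitamin D response element was found in 1 member window, that of Gpx2, and in 0.814% of all genes. None of the windowed members called for 1,25D (Cbr3, Gsto1, Aox1, Blvrb and Prdx4) held it. A match of letters is a description and not a bound site.

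Other genes of the same pathways were followed on a list of 72, of which 66 were measured. At 6 h of 1,25D none was called by limma, against 0.852% of all genes, and 5 had an unadjusted p under 0.05, against 7.01%. A second Idh1 probe set, dimmer than the one chosen, rose by 0.635 (limma adjusted p = 0.0491), where the chosen one gave 0.003. At 48 h 3 of the 66 genes rose and 1 fell (6.06%, against 2.39% of all genes, dim ones included), with a median of 0.04. The largest rise was that of Slc7a11, the cystine carrier of system xc- that supplies cysteine for glutathione. It read 8.46, 7.93 and 8.15 with vehicle at 48 h and 9.37, 10.21, 9.64 and 9.57 with 1,25D, without overlap. Slc7a11 rose by 1.52 (SE 0.18, limma adjusted p = 0.000342), or 2.86-fold. At 6 h it read 9.31, 9.34 and 9.40 with vehicle and 9.03, 9.01 and 9.30 with 1,25D, where every treated array was lower but the difference of -0.24 was not called (adjusted p = 0.971). Its responses at the 2 times differed by 1.75 (SE 0.26, adjusted p = 0.00866). Over time in vehicle it fell by 1.17 (SE 0.19, adjusted p = 0.000942). A dimmer Slc7a11 probe set fell by 1.67 over time in vehicle and was not called for 1,25D at 48 h (0.49, adjusted p = 0.778), and the mean over both rose by 1.00 at 48 h (adjusted p = 0.00704).

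Glrx, glutaredoxin, which removes glutathione from protein thiols, read 11.07, 11.25 and 11.07 with vehicle at 48 h and 11.79, 11.61, 11.82 and 11.95 with 1,25D. It rose by 0.66 (SE 0.10, limma adjusted p = 0.00408) without overlap. Its second probe set was not called (0.71, adjusted p = 0.526), and the call was lost with the mean over both (0.69, adjusted p = 0.0717). Abcc3, a transporter that exports conjugates, read 8.74, 9.04 and 8.84 and then 9.90, 9.50, 9.82 and 9.65. It rose by 0.85 (SE 0.17, adjusted p = 0.0208), a call lost without vehicle 48 h replicate 1 (0.132) or replicate 3 (0.106) and without 1,25D 48 h replicate 1 (0.0819) or replicate 3 (0.0782). The transferrin receptor Tfrc read 10.59, 10.54 and 10.47 with vehicle and 10.23, 9.99, 10.05 and 10.08 with 1,25D. It fell by 0.45 (SE 0.10, adjusted p = 0.0374), a call lost in 7 of the 13 fits: without 1,25D 6 h replicate 1 (0.0626), vehicle 48 h replicates 1 (0.192), 2 (0.155) and 3 (0.0927), and 1,25D 48 h replicates 2 (0.0982), 3 (0.117) and 4 (0.0768). It was also lost with median centring (0.0514), with no intensity trend (0.0611) and with the mean over its probe sets (-0.35, adjusted p = 0.768).

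Over time in vehicle 17 of these 66 genes rose and 14 fell (47%, against 18.6% of all genes, dim ones included), with a median of 0.08. Txnip, which binds and inhibits thioredoxin, rose from 7.14, 7.25 and 7.46 at 6 h to 10.36, 10.32 and 10.15 at 48 h. That was a rise of 2.99 (SE 0.14, limma adjusted p = 1.54e-08), or 7.96-fold, and larger than that of any of the 45 members. With 1,25D at 48 h Txnip read 10.17, 10.43, 9.93 and 10.18 and overlapped with vehicle. Gstt3, a transferase next in class to Gstt1, rose by 2.28 and the iron exporter Slc40a1 by 2.06. The 3 largest falls were those of Slc7a11, Tfrc (-1.12) and Pgd (-0.78), the second NADPH-making step of the pentose phosphate pathway.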

How the data were processed

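Cultured mouse prostate progenitor/stem cells were profiled on 13 Affymetrix arrays. The values, as deposited by the authors, are log2 signals per probe set in a single table of 45101 probe sets, and the submitters' processing notes name MAS5 without a version or a role; how the log2 scale was reached is not given in the sources used here. The design text names a smaller chip of the same family than a table of this size points to, so probe sets were named through the platform annotation that matches the table. After 64 control probe sets were left out, 45037 were tested, of which 34945 carried 1 gene symbol, 932 several and 9160 none, and only those with 1 were named. Every per-sample column was used.

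One limma fit (version 3.58.1, R 4.3.3, with group means and intensity trend, two-sided) covered all 13 arrays. The script recovered known changes in simulated data for 1,25D against vehicle at 48 h. The simulated noise was independent and of equal spread on every array, so it checked the code and not the effect of arrays that stand apart. Single values were checked with exact permutation tests (scipy 1.17.1, Python 3.11.15), and figures were drawn with matplotlib 3.10.9. Precision is limited by how many arrays each group has. The members and lists were chosen with earlier results of these data known. Values are given on every array for each member called for 1,25D or for the difference of its responses, for the 6 largest rises and falls in vehicle, and for Nfe2l2, Keap1, Nqo1, Hmox1, Gclc, Gclm, Mt1 and Mt2; other members are given by role or with their log2 difference, and array values of a few more were added after they were seen. From the further list, genes called for 1,25D and the 3 largest rises and falls in vehicle are named. Alternatives changed the offset, normalization, trend, filter, samples, array weights, replicate block and choice of probe set.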

Additional observations from a re-analysis of the deposited data

Results flagged for a closer look

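Sqstm1 in 1,25D 48 h replicate 3 read 11.71 on the log2 scale, while the other 3 arrays of that group read 11.48 to 11.51. The gap of that array to its nearest neighbour was 0.874 of the group's range, above Dixon's critical value for 4 arrays. It was the only one of 53 genes tested in this way that passed, and chance alone flags about 5% of groups.

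The response of Gsta4 to 1,25D differed between the times, by 0.99 on the log2 scale (48 h minus 6 h, limma adjusted p = 0.00454). That of the cystine carrier Slc7a11 differed by 1.75 (limma adjusted p = 0.00866), with a difference of -0.24 at 6 h and a rise of 1.52 at 48 h.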

How the results depend on the processing

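Under no alternative did a called value of a named gene change direction. At 6 h of 1,25D the count of 1 called member, Gsr, stood in every alternative. At 48 h the count of 7 went to 11 with array quality weights (adding Gclc, Cat, Gpx1 and Mgst2) and ranged from 4 to 7 when single arrays were left out, the lowest without vehicle 48 h replicate 1. The count of 1 for the difference of the responses became 2, with Cbr3 added, under quantile normalization, with no intensity trend, with array quality weights, without both arrays that stand apart and with the mean over all probe sets of a gene. It became 3 without the dimmest 40% of probe sets (Cbr3 and Prdx4 added) and ranged from 1 to 2 when single arrays were left out. Over time in vehicle the count of 23 ranged from 18 to 26. Single calls at 48 h were lost under other settings too: Aox1 with quantile normalization, median centring and only the groups compared, Blvrb with median centring, Gsto1 with no intensity trend and Prdx4 with the mean over all probe sets. Beside the replicate block below, no other alternative changed a count by over 1.5 times.

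Whether the replicate numbers pair the arrays was not settled, since same-numbered arrays were not set against differently numbered ones. Over 9 same-numbered pairs the correlation of deviations from the group means ran from -0.534 to 0.482, and 4 pairs were over 0.1. Between vehicle and 1,25D it was 0.277, 0.222 and 0.0692 at 6 h and -0.00941, -0.534 and 0.386 at 48 h. With the replicate number as a block, 1 member was called at 6 h, 5 at 48 h (Blvrb and Aox1 lost), 23 over time in vehicle and 2 for the difference.

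The array scale has no counts, so signal over background limits dim members: Gpx7 (percentile 31.8), Aox1 (47.8) and Gpx3 (50.4) lay near or below the middle of all probe sets. A missed threshold with 3 or 4 arrays a group does not show that a member was unaltered. The Sqstm1 rise in vehicle was 0.10 (limma adjusted p = 0.842) on the probe set left when those that can match several transcripts were dropped. That probe set was dim, at percentile 24.6 against 97.3 for the chosen one, so its value says little about the rise.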
